A study of Homo sapiens with 12 samples.

Results

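Libraries of T24 cells labelled shFTO were compared with libraries of T24 cells labelled shNC across all genes of a deposited count table, 6 of the 12 libraries of a study of FTO in bladder cancer. The members were the 3 columns named T24-shFTO and the 3 named T24-shNC, and the other 6 libraries, of the line RT4, were used to share the estimate of the spread and for one comparison of the contrasts. T24 is a human line from a high-grade urothelial carcinoma. The shFTO libraries carry the treatment label FTO knockdown and the shNC libraries carry the label none, and both have the same line, cell type and genotype labels (T24, Bladder cancer, homo). The labels give no hairpin sequence and no dose or time of knockdown, and they do not say whether each line was a clone, a pool or several transductions. Nothing in them says that the 3 replicates of a group were separate cultures, and the p-values therefore speak only of the spread among these libraries, which may be technical. Total counts were 54553356, 34281703 and 41309338 in shFTO and 32703357, 31291047 and 43791909 in shNC. Levels are CPM, with library sizes scaled by TMM, and the 3 values of a group are given in replicate order.

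FTO encodes an oxygenase that removes a methyl group from N6-methyladenosine (m6A), a mark placed on messenger RNA by the METTL3 and METTL14 complex and read by YTH domain and other RNA-binding proteins. Bladder epithelium is built on a transcription programme of GATA3, PPARG, FOXA1 and ELF3, with uroplakins at the luminal surface and keratins that differ between basal and luminal layers. Liver parenchyma runs on another one, in which HNF4A, FOXA2 and CEBPA together drive genes for albumin, apolipoproteins, clotting factors and amino acid catabolism.

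FTO itself was lower in all 3 libraries labelled knockdown. It lies on chromosome 16, from 53703963 to 54121941 in RefSeq GRCh38.p14. FTO stood at 25.9, 26.3 and 24.2 CPM in shFTO and at 35.4, 36.3 and 33.9 CPM in shNC, or 25.5 ± 1.09 against 35.2 ± 1.25 CPM (SD, n = 3). Every shFTO library was below every shNC library, by -0.45, -0.47 and -0.48 on the log2 scale within batches 1, 2 and 3. The fitted log2 change was -0.46 (SE 0.049, 95% interval -0.57 to -0.36, edgeR adjusted p = 1.93e-07). An exact two-sided permutation test gave p = 0.1, the smallest that 3 against 3 libraries allow. Of the 23070 genes tested, 17039 (73.9%) had a larger absolute log2 change than FTO.

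The label of the cells was checked against markers of 10 cell types. Of 12 hepatocyte markers, 10 reached at least 10 CPM in every shFTO library and 1, CPS1, did so in shNC, and the summed level of the list ran from 24222 to 25322 CPM in shFTO against 2845 to 2922 CPM in shNC. Of 12 urothelial markers, 3 reached 10 CPM in shFTO (GATA3, PPARG and ELF3) and 3 in shNC (PPARG, KRT7 and ELF3). Their sums were 126 to 129.5 CPM in shFTO and 1336 to 1414 CPM in shNC, and KRT7 made up most of the latter. The uroplakins UPK1A, UPK1B, UPK2 and UPK3A, the defining proteins of umbrella cells, were below 10 CPM in all 6 libraries. The shFTO libraries therefore go against their tissue label on these markers. The shNC libraries do not show the urothelial set as a whole either, with 3 of 12 markers at 10 CPM and CPS1 high. Groups are named as labelled throughout.

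Fibroblast markers summed to 29.3 to 33.6 CPM in shFTO and 158 to 166 CPM in shNC, most of the latter from COL1A1. By member, 4 of these 9 were called higher in shFTO and 3 lower, beside 37.2% and 40.8% of all tested genes. Intestinal markers summed to 479.8 to 527 CPM in shFTO, nearly all of it VIL1, a brush border protein that hepatocytes and proximal tubule also make. Neuronal markers summed to 86.9 to 91.7 CPM in shFTO and 105.5 to 117 CPM in shNC. General epithelial markers summed to 3468 to 3746 CPM in shFTO and 5342 to 5505 CPM in shNC, mostly from KRT8 and KRT18. By member the direction differed from the sum, with 4 of 6 called higher in shFTO and 2 lower (median log2 change 5.52). All 6 reached 10 CPM in every shFTO library and 3 did so in shNC. Leukocyte, endothelial and kidney tubule markers each summed to less than 24 CPM in every T24 library, and no erythroid marker passed the low-count filter. Because the hepatocyte markers split with the label in every library, a difference in the cells and the labelled knockdown cannot be told apart in these files. In bulk RNA, fewer cells of a type and less RNA per cell cannot be told apart either.

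**Figure D1:**
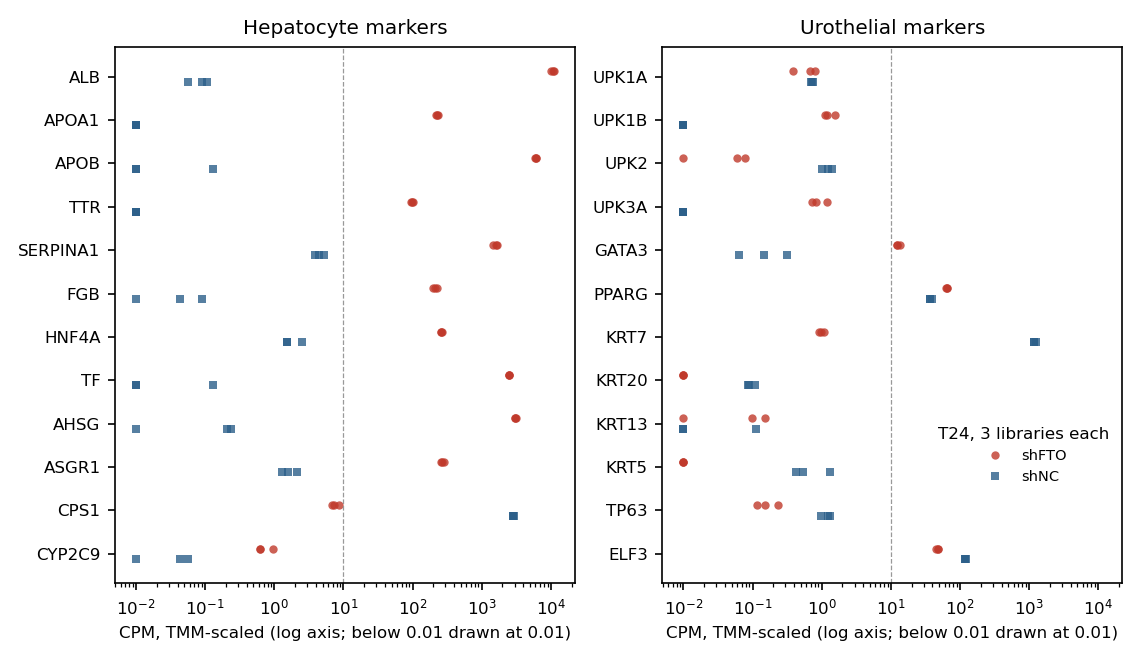
Level of 12 hepatocyte and 12 urothelial markers (rows) in CPM on a log axis, with red circles for the 3 T24 shFTO libraries, blue squares for the 3 T24 shNC libraries and a dashed line at 10 CPM. Of the hepatocyte markers, 10 sit right of the line in shFTO, CPS1 does so in shNC, and KRT7 is the urothelial marker with the widest gap.

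The promoters of 6 genes are shown, all of which hold the letters marked in them. They belong to plasma protein genes, which were higher in shFTO, and interferon-stimulated genes, which were lower. Each is the 300 bases from 250 before to 50 after the gene start in RefSeq GRCh38.p14, on the strand of its gene. The first 3 belong to plasma protein genes that were high in shFTO, and capitals mark the letters GTTAATNAT, a form of the site bound by HNF1 factors, on either strand. They cover chr4:73404037-73404336 (plus strand, ALB), chr4:73435971-73436270 (plus strand, AFP) and chr4:154590693-154590992 (minus strand, FGA).
ALB: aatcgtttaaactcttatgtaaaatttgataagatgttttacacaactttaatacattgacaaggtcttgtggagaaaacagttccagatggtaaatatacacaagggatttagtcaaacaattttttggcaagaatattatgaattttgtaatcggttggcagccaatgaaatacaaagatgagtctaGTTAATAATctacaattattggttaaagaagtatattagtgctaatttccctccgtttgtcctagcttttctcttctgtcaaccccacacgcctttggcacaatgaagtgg
AFP: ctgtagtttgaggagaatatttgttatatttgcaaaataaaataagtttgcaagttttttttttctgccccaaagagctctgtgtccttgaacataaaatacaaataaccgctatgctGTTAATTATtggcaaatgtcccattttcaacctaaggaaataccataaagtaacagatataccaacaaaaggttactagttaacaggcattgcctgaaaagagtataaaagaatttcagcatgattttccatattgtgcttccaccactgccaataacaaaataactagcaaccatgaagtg
FGA: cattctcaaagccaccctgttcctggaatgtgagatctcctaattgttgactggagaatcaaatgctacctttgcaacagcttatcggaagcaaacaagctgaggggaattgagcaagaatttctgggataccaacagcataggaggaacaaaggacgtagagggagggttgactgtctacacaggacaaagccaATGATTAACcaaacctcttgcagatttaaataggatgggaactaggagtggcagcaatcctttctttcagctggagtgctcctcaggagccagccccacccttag
The match began 61, 132 and 55 bases before the gene start in ALB, AFP and FGA. Those letters were found in 67 of 13980 promoters of tested genes (0.479%), in 2 of 22 of the plasma carrier list (9.09%) and in 2 of 22 of the coagulation list (9.09%). Most promoters of both lists thus lacked them, and the 3 printed are not typical of their lists.

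The other 3 belong to interferon-stimulated genes that were high in shNC, and capitals mark GAAANNGAA, the core of the interferon-stimulated response element (ISRE), on either strand. They cover chr15:44711267-44711566 (plus strand, B2M), chr11:320811-321110 (minus strand, IFITM3) and chr1:1013247-1013546 (plus strand, ISG15).
B2M: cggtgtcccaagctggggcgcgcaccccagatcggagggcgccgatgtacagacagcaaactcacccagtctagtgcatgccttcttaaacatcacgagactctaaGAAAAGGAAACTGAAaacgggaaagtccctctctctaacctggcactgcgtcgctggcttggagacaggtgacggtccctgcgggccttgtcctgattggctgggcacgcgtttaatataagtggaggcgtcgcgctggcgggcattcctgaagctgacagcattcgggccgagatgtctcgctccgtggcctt
IFITM3: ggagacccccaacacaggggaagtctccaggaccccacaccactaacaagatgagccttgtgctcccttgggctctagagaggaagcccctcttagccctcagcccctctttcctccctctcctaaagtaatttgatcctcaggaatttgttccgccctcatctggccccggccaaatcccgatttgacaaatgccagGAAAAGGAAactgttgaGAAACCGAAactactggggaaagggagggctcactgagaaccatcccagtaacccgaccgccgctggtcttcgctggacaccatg
ISG15: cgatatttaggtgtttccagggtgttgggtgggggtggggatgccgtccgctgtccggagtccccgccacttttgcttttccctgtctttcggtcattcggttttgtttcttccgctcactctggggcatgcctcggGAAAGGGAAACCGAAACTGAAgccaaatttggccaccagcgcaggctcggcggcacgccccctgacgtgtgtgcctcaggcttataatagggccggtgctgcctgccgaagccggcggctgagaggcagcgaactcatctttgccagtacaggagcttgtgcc
B2M held 2 matches that began 144 and 138 bases before the start, IFITM3 held 2 at 52 and 35, and ISG15 held 3 at 113, 107 and 101, where neighbours that begin 6 bases apart overlap. These letters were found in 26 of 36 promoters of the interferon effector list (72.2%) and in 945 of 13980 of all tested genes (6.76%). The other strings searched were CAAAGTCCA for HNF4, in 47 of 13980 promoters (0.336%) and in AHSG and F10 among the plasma and coagulation lists, TGANTCA for AP-1 (742 of 13980, 5.31%) and GGAATG for TEAD (1597 of 13980, 11.4%). The AP-1 letters were in 3 of 11 basal keratinocyte promoters and in 5 of 27 of the cytokine list. The TEAD letters were in 7 of 22 promoters of the YAP and TEAD list. They were also in 4 of 6 of the HOXD cluster and 5 of 18 of the interferon sensor list. No link between letters and list is read from these shares. A match is a string of letters and not a measured binding site.

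Over all genes the groups stood far apart. Of 23070 genes tested with edgeR, 18006 (78%) were called at an adjusted p under 0.05, 8584 (37.2%) higher in shFTO and 9422 (40.8%) lower, and these shares are the background for every count below. The groups' values did not overlap for 79.6% of genes, with shFTO above in 38.2% and below in 41.4%. At 2-fold or more, 4904 genes (21.3%) were higher and 6338 (27.5%) lower. The median absolute log2 change was 1.06. Within a group the median coefficient of variation of genes at 10 CPM or more was 3.55% in shFTO and 3.64% in shNC.

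The sets of genes in use still overlapped widely. In every library, 9811 genes reached 10 CPM in shFTO and 9949 in shNC, and 8490 did so in both groups, 86.5% of the first set and 85.3% of the second. At the other end, 109 genes at 10 CPM or more in every shFTO library had 0 counts in all 3 shNC libraries, and 122 genes showed the reverse. By RefSeq class 101 of the 109 and 103 of the 122 were protein coding. Among 2238 genes at a mean of 100 CPM or more, 788 (35.2%) differed at least 2-fold and 474 (21.2%) lay within 1.2-fold.

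**Figure D2:**
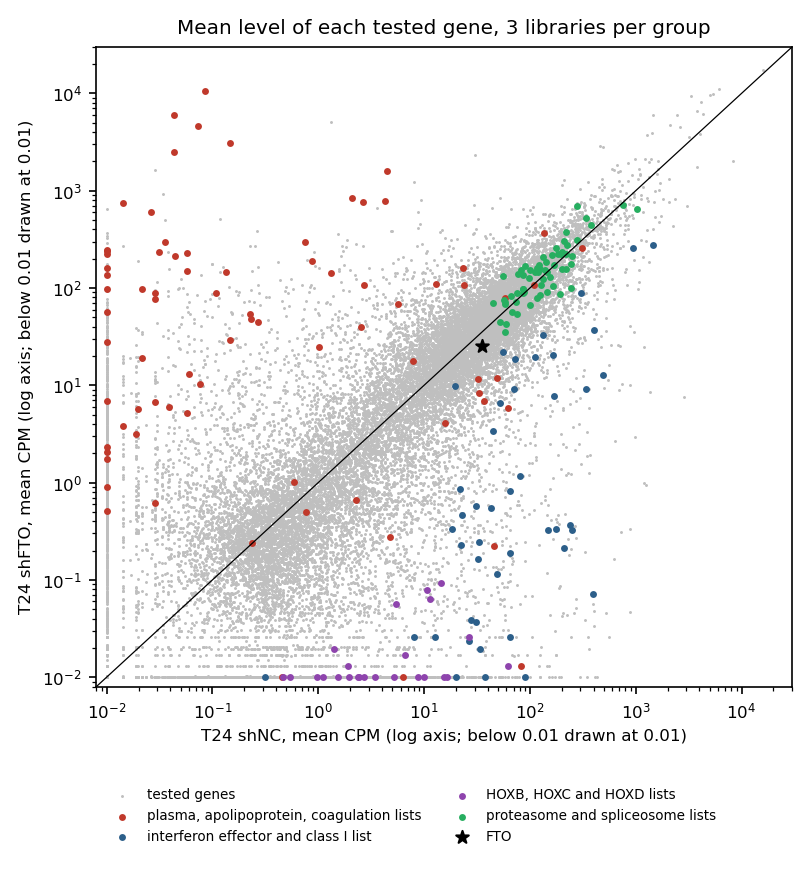
Mean CPM of each tested gene in T24 shNC (horizontal) and T24 shFTO (vertical) over 3 libraries per group, on log axes with means below 0.01 drawn at 0.01 and a line of equality. The plasma, apolipoprotein and coagulation lists lie mostly in the upper left, the interferon effector and HOXB, HOXC and HOXD lists below the line, the proteasome and spliceosome lists near it, and FTO just under it.

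The 12 genes with the largest gain in CPM took 8.41% to 8.62% of all counts in shFTO libraries and 2.89% to 3.05% in shNC libraries. They were 5 genes of secreted plasma or growth proteins (ALB, APOB, IGF2, APOA2 and AHSG), the translation elongation factors EEF1A1 and EEF2, and 5 mitochondrially encoded RNAs (MT-CO2, MT-ND4, MT-CO3, MT-ATP6 and MT-RNR2). EEF1A1, which brings aminoacyl-tRNA to the ribosome, read 9941, 9196 and 9308 CPM in shFTO and 3292, 3355 and 3367 CPM in shNC. EEF2, the translocation factor, read 6056, 5946 and 5970.2 CPM in shFTO and 1406, 1428 and 1545 CPM in shNC. Both were higher in every shFTO library, with log2 changes of 1.51 and 2.04 (SE 0.0404 and 0.0408, edgeR adjusted p = 2.35e-15 and 5.35e-17).

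The 12 genes with the largest loss took 0.676% to 0.694% of counts in shFTO and 3.36% to 3.44% in shNC. FTH1, the ferritin heavy chain that stores iron, stood at 1988, 1987 and 2107 CPM in shFTO and 8416, 8111 and 8293 CPM in shNC. PSAP, the precursor of the lysosomal saposins, read 789, 757 and 756 CPM against 2011, 2081 and 2151 CPM, and CLU, an extracellular chaperone, read 472, 456 and 501 CPM against 1622, 1655 and 1655 CPM. NEAT1, the nuclear RNA that scaffolds paraspeckles, read 450.0, 424 and 421 CPM in shFTO and 2282, 2201 and 2321 CPM in shNC. In none of these 4 did the groups overlap, and their log2 changes were -2.03, -1.44, -1.79 and -2.39 (highest edgeR adjusted p = 1.01e-14 among them, for FTH1). The other 8 were CPS1, PKM, FLNA, COL7A1, B2M and the keratins KRT8, KRT17 and KRT7, which are described with their groups.

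The transcription factors that run the liver programme differed strongly. Of 27 tested, 23 were higher in shFTO and 3 lower, beside 37.2% and 40.8% of all genes, and the median log2 change was 4.25 against -0.05 over all genes. HNF4A, a nuclear receptor required for hepatocyte gene expression, read 269, 256 and 259.7 CPM in shFTO and 1.51, 1.55 and 2.48 CPM in shNC. CEBPA, a basic leucine zipper factor of metabolic tissues, read 404, 380.0 and 378 CPM against 5.07, 4.58 and 5.22 CPM. Both were high in all 3 shFTO libraries and low in all 3 shNC libraries, with log2 changes of 7.101 and 6.28 (edgeR adjusted p = 7.01e-13 and 1.39e-16).

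Of these factors, 5 had 0 counts in all 3 shNC libraries. PROX1, a homeobox factor of hepatoblasts and lymphatic endothelium, stood at 319, 320.0 and 337 CPM in shFTO and was at least 12523-fold higher there, taking 3 counts over the shNC group as the floor. FOXA2, a pioneer factor of endoderm, stood at 52.95, 53.5 and 52.9 CPM (at least 2044-fold), FOXA3 at 62.3, 56.8 and 53.8 CPM (at least 2218-fold) and ONECUT1 at 54.5, 54.2 and 56.9 CPM (at least 2123-fold). The fifth, the bile acid receptor NR1H4, is described with its pathway. The endoderm factors GATA4 (71.5, 69.3 and 68.2 against 5.64, 4.76 and 4.65 CPM, log2 change 3.800) and HHEX (83.6, 80.1 and 80.5 against 6.63, 5.18 and 6.17 CPM, 3.76) were higher in each shFTO library.

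The 3 factors that were lower were NR2F1, TBX3 and CEBPB. NR2F1 (COUP-TFI) read 21.3, 21.5 and 18.1 CPM in shFTO and 77.5, 73.5 and 70.2 CPM in shNC, whereas its paralog NR2F2 (COUP-TFII) read 43.4, 44.9 and 41.1 CPM and 5.61, 6.79 and 5.89 CPM, so the pair differed in opposite directions (-1.86 and 2.83 on the log2 scale). TBX3 read 26.9, 28.4 and 26.7 CPM against 61.2, 62.8 and 63.6 CPM. CEBPB, the acute phase paralog of CEBPA, read 12.2, 11.1 and 9.93 CPM against 21.1, 17.2 and 21.3 CPM (edgeR adjusted p = 0.00962, and 0.0574 with limma-voom). PPARA, the receptor for fatty acids, was not called, at 14.5, 13.4 and 12.9 CPM and 13.2, 14.2 and 14.03 CPM with overlapping groups, though library totals called it lower.

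Plasma carriers and acute phase proteins were the list with the highest median. Of 30 tested, 28 were higher in shFTO, 0 lower and 2 not called, with a median log2 change of 8.63 (8.18 when genes at 0 counts take the bound used above). ALB, serum albumin, read 11027, 10236 and 10847 CPM in shFTO and 0.0569, 0.0893 and 0.107 CPM in shNC. TF, the iron carrier transferrin, read 2517, 2461 and 2501 CPM against 0, 0 and 0.128 CPM, and AHSG, the calcification inhibitor fetuin-A, read 3169, 2999 and 3034 CPM against 0, 0.208 and 0.236 CPM. The shNC values of these 3 genes rest on 10, 6 and 18 counts over the group. Higher but still low levels in shNC were seen for SERPINA1, the elastase inhibitor alpha-1-antitrypsin (1598, 1468 and 1667 against 4.38, 5.18 and 3.92 CPM), A2M, a broad protease trap (814, 839 and 865 against 2.76, 1.399 and 2.14 CPM), and AMBP, the precursor of bikunin (777, 725 and 774 against 2.22, 3.36 and 2.29 CPM). In all 6 genes every shFTO library exceeded every shNC library, by log2 changes of 8.19 to 16.87 (highest edgeR adjusted p = 3.28e-12, for AHSG). Not all plasma genes were high. Of the 34 members, 19 reached 10 CPM in every shFTO library and 2 in every shNC library. HRG and ITIH4, chosen after their values were seen as the 2 members not called, stayed below 1 CPM on average in both groups.

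Most apolipoprotein and lipoprotein genes were higher. Of 22 tested, 15 were higher in shFTO and 6 lower, with a median log2 change of 7.68 (6.94 at the bounds). APOB, which forms the backbone of very low-density and low-density lipoprotein, read 5886, 6016 and 6121 CPM in shFTO and 0, 0 and 0.128 CPM in shNC, and APOA2, a protein of high-density lipoprotein, read 4563, 4588 and 4795 CPM against 0, 0.0893 and 0.128 CPM. APOE, the ligand for lipoprotein receptors, read 845, 769.9 and 763 CPM against 4.84, 4.14 and 3.73 CPM (log2 change 7.56, edgeR adjusted p = 1.99e-19). APOA1 and APOH had 0 counts in shNC and stood at 231, 225 and 218 and 242, 252 and 245 CPM in shFTO. SCARB1, the receptor for high-density lipoprotein, read 257, 258 and 260.1 CPM against 297, 310.3 and 322 CPM (-0.26).

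Clotting and fibrinolysis genes were called in both directions. Of 27 tested, 19 were higher and 7 lower (median log2 change 5.30). The 3 fibrinogen chains, encoded side by side on chromosome 4, read 299, 306 and 296 CPM (FGA), 223, 199.9 and 210.2 CPM (FGB) and 229.9, 223 and 233 CPM (FGG) in shFTO. In shNC the same genes read 0, 0 and 0.107, 0, 0.0893 and 0.0428 and 0, 0 and 0.171 CPM. F2, prothrombin, read 238, 227 and 235 CPM against 0.0285, 0 and 0.0642 CPM, and F5, its cofactor, 145, 154 and 149 CPM against 0.114, 0.0595 and 0 CPM. All 5 were near the detection limit in every shNC library. The 7 lower members, named after their values were seen, were F3, TFPI2, THBD, PLAU, PLAUR, PLAT and SERPINE2, among them tissue factor (F3), both plasminogen activators (PLAU and PLAT) and the urokinase receptor (PLAUR).

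Complement genes were divided. Of 25 tested, 15 were higher and 8 lower (median 2.07). C3, the central component, read 1534, 1532 and 1609.6 CPM in shFTO and 667, 676 and 694 CPM in shNC (log2 change 1.198, edgeR adjusted p = 7.92e-10), so it was abundant in both groups. CFB, the serine protease of the alternative pathway, went the other way, at 35.96, 36.9 and 35.3 CPM against 519, 513 and 528 CPM (-3.85). Of the 3 membrane regulators that protect host cells, CD55 read 9.49, 10.9 and 10.7 CPM against 729.7, 755 and 719 CPM, CD59 read 151, 147 and 155 CPM against 436, 445 and 456 CPM, and CD46 read 295, 285 and 295 CPM against 364, 374 and 359 CPM. All 3 were lower in each shFTO library, by -6.15, -1.57 and -0.33 on the log2 scale (edgeR adjusted p = 2.07e-21, 4e-17 and 3.65e-08).

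Amino acid catabolism and the urea cycle did not differ in one direction. Of 31 tested, 21 were higher and 10 lower (median 1.51). The first enzyme of the urea cycle, CPS1, ran against the other hepatocyte markers, at 8.72, 6.83 and 7.399 CPM in shFTO and 2838, 2913 and 2884 CPM in shNC (log2 change -8.54, SE 0.0905, edgeR adjusted p = 6.78e-18). ASS1, which condenses citrulline with aspartate, also read lower, at 91.7, 85.8 and 91.6 CPM against 518, 523 and 553 CPM (-2.57). GLUD1, glutamate dehydrogenase, read 283, 279.5 and 275 CPM against 105, 104 and 104 CPM (1.42). KYNU, of tryptophan breakdown, read 6.16, 6.19 and 5.25 CPM against 354, 366 and 355 CPM (-5.93). No library of one group overlapped the other in these 4 genes.

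Gluconeogenic and bile acid genes were mixed as well, with 9 of 17 tested higher and 6 lower (median 0.93). PCK2, the mitochondrial phosphoenolpyruvate carboxykinase, read 115, 107 and 109 CPM in shFTO and 24.9, 24.5 and 24.5 CPM in shNC (log2 change 2.17, edgeR adjusted p = 1.63e-16). Its cytosolic counterpart PCK1, the liver's regulated form, had 0 counts in shFTO and 0.427, 0.446 and 0.236 CPM in shNC, a call that was lost with DESeq2 (adjusted p = 0.164). ABCC2, a canalicular export pump, read 159, 157 and 157 CPM against 798, 823 and 808 CPM (-2.36). SLC37A4, the glucose 6-phosphate transporter, read 62.97, 64.1 and 64.7 CPM against 30.003, 28.7 and 28.6 CPM (1.14).

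The hormone axis from bile acids to FGF19 was higher at nearly every step. Of 11 tested members, 10 were higher and 1 lower (median 6.37). The bile acid receptor NR1H4 (FXR) stood at 69.4, 69.9 and 69.7 CPM in shFTO with 0 counts in shNC, at least 2680.4-fold higher. Its target NR0B2 (SHP), a corepressor, read 37.9, 40.8 and 41.1 CPM against 0.0854, 0.0595 and 0 CPM. The hormone FGF19, an ileal product in the adult, read 11.8, 10.4 and 12.5 CPM in shFTO and 0.114, 0.0893 and 0.193 CPM in shNC, and the related FGF21 read 2.23, 2.59 and 1.77 CPM against 0.0569, 0 and 0.0856 CPM. The receptor FGFR4 read 416, 410.2 and 417 CPM against 8.37, 8.39 and 9.27 CPM and its coreceptor KLB 86.4, 87.1 and 85.6 CPM against 0.142, 0.0893 and 0.0642 CPM. Ligand, receptor and coreceptor were thus all higher in each shFTO library, with log2 changes of 6.37, 5.57 and 9.79 (edgeR adjusted p = 1.59e-10, 7.54e-18 and 1.47e-16). Among the other receptors, FGFR3 read 524, 511 and 518 CPM against 30.1, 33.9 and 33.6 CPM (3.99), FGFR2 read 38.4, 36.8 and 35.6 CPM against 0.114, 0 and 0 CPM (9.95, or 13.87 without shNC replicate 1 and 9.26 without shNC replicate 3), and FGFR1 was the member that was lower, at 19.1, 17.8 and 17.97 CPM against 25.2, 24.7 and 25.1 CPM (-0.45). Of the basolateral bile acid exporter OSTalpha-OSTbeta, SLC51A read 2.21, 2.35 and 3.23 CPM against 1.57, 0.744 and 1.48 CPM and SLC51B 6.42, 4.88 and 4.81 CPM against 0, 0.0893 and 0.0428 CPM.

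Oncofetal and imprinted genes, active in fetal liver and in embryonal tumours, were higher for 15 of 19 and lower for 3 (median 4.99). IGF2, a fetal growth factor, read 5055, 5150.3 and 5065 CPM in shFTO and 1.62, 1.31 and 1.03 CPM in shNC. H19, the noncoding RNA from the same imprinted domain on chromosome 11, read 2374, 2299.9 and 2301 CPM against 31.7, 30.8 and 29.2 CPM. AFP, the fetal albumin, read 746, 739.8 and 733 CPM against 0, 0 and 0.0428 CPM, a ratio of 42719.5 (95% counting interval 11826 to 352754) on 2 counts in shNC. GPC3, a cell-surface proteoglycan, stood at 659, 639.9 and 646 CPM with 0 counts in shNC, at least 24946-fold higher. SNRPN, from the imprinted domain on chromosome 15, read 299.6, 290.5 and 308 CPM against 71.7, 72.5 and 71.2 CPM (2.06). All 5 were higher in every shFTO library, and the log2 changes of IGF2 and H19 were 11.94 and 6.25 (edgeR adjusted p = 6.2e-17 and 4.41e-22).

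Enzymes of drug metabolism were higher for 21 of 30 and lower for 6 (median 3.76, or 3.38 at the bounds), but most of them stood low. In shFTO 8 of the members reached 10 CPM in every library and in shNC 6 did. CYP1A1, the inducible hydrocarbon oxidase, read 76.2, 70.2 and 72.1 CPM in shFTO and 0.854, 0.744 and 0.707 CPM in shNC, and UGT2B4, a glucuronosyltransferase of bile acids, read 135, 139.7 and 136 CPM against 0.114, 0.119 and 0 CPM. NNMT, nicotinamide N-methyltransferase, went the other way, at 0.0391, 0 and 0 CPM against 120.4, 119 and 124 CPM, with 2 counts in shFTO and a shNC to shFTO ratio of 7465 (95% counting interval 2066 to 61644). CYP1B1 read 0.743, 1.19 and 1.46 CPM against 81.2, 77.5 and 75.8 CPM (-6.16) and EPHX1, microsomal epoxide hydrolase, 59.4, 55.9 and 57.5 CPM against 283, 289.6 and 287 CPM (-2.31).

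**Figure D3:**
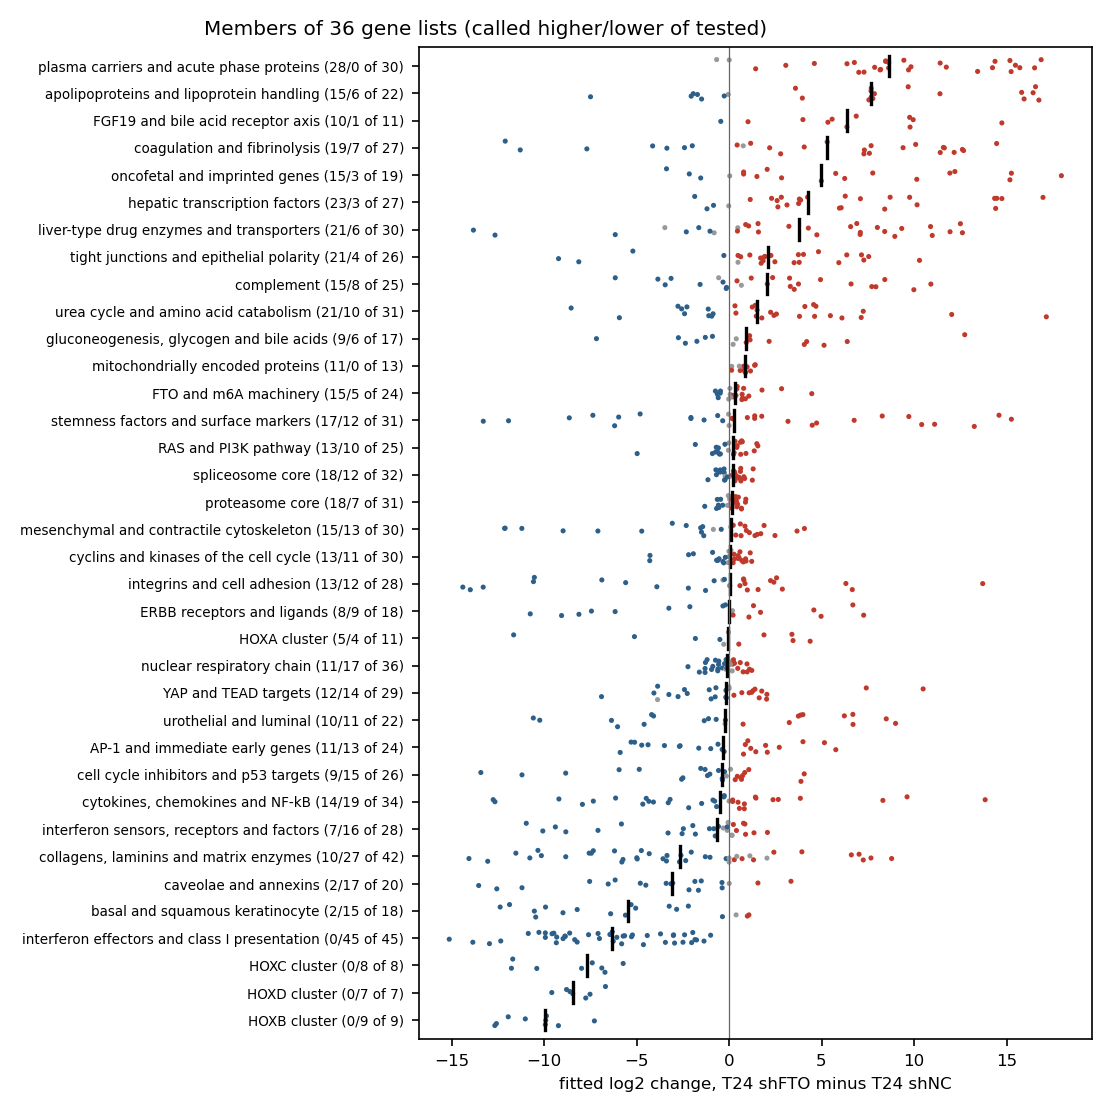
Fitted log2 change (T24 shFTO minus T24 shNC) of every tested member of 36 gene lists, sorted by list median (black bars), in red where called higher, blue where called lower and grey where not called. Plasma carriers have the highest median (8.63), the HOXB, HOXC and HOXD clusters the lowest, and the cyclin, integrin, proteasome and spliceosome lists have medians between 0.03 and 0.23, of which those of cyclins and integrins turn negative under upper-quartile scaling and library totals.

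Genes that execute the interferon response were lower without exception. All 45 tested effector and class I presentation genes were lower in shFTO, beside 40.8% of all genes, with a median log2 change of -6.32 (-6.26 at the bounds). Of its members, 43 reached 10 CPM in every shNC library and 10 in every shFTO library. OASL, an antiviral 2'-5' oligoadenylate synthetase relative, read 0.0782, 0.061 and 0.0768 CPM in shFTO and 393, 391 and 398 CPM in shNC (log2 change -12.34, edgeR adjusted p = 1.54e-21). ISG15, a ubiquitin-like modifier added after its values were seen for the promoter above, read 8.14, 8.88 and 10.4 CPM against 339.8, 332 and 349 CPM (-5.22). IFITM3, which blocks viral entry, was lower by less, at 74.2, 93.1 and 102 CPM against 296, 315 and 299 CPM (-1.76). No shFTO library reached the lowest shNC library in these 3 genes.

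Peptide presentation on class I molecules was lower at each named component. The heavy chains HLA-B and HLA-C read 12.9, 11.6 and 13.4 and 39.6, 35.6 and 36.4 CPM in shFTO. In shNC they read 476, 481 and 515 and 406, 394 and 416 CPM. The light chain B2M, shared by the heavy chains, read 278, 267 and 280.4 CPM against 1374, 1463 and 1535 CPM (log2 change -2.41, SE 0.0417, edgeR adjusted p = 8.69e-18). The fitted log2 change was -5.28 for HLA-B and -3.44 for HLA-C. The heavy chain genes are close copies, and reads that fit more than one of them make their separate levels uncertain.

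The genes upstream of these effectors did not follow as one block. Of 28 tested sensors, receptors and transcription factors, 7 were higher and 16 lower (median -0.66). Their mean log2 change was further down, at -2.18. In every shNC library 22 reached 10 CPM, against 12 in every shFTO library, and 2 had 0 counts in shFTO. The members named next were chosen by their high level and not by their change. STAT2, a transcription factor of the type I interferon signal, was lower in shFTO, at 42.3, 44.2 and 45.5 CPM against 90.7, 92.4 and 92.2 CPM (log2 change -1.06, edgeR adjusted p = 1.26e-13). The adaptor MAVS read 175, 176 and 177 CPM against 93.03, 92.5 and 98.5 CPM (0.89) and IRF3, which it activates, 81.2, 81.9 and 83.3 CPM against 42.5, 47.4 and 46.2 CPM (0.86), both higher in each shFTO library. The kinases TYK2 and JAK1 were called in opposite directions, at 0.397 and -0.103 on the log2 scale, from 143, 140.0 and 141 against 103, 106 and 113 CPM for TYK2 and 127, 129 and 136 against 143, 139.5 and 139 CPM for JAK1. The call of JAK1 as lower was lost with no filter and without shFTO replicate 1, shFTO replicate 2 or shNC replicate 1 (adjusted p = 0.407, 0.0876, 0.0723 and 0.0596).

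Cytokines, chemokines and NF-kB genes were mixed, with 14 of 34 higher and 19 lower (median -0.48). CCL5, a chemokine for T cells, read 0.0782, 0 and 0 CPM in shFTO and 246, 241 and 239.7 CPM in shNC (log2 change -12.75, edgeR adjusted p = 1.09e-14, or -16.54 without shFTO replicate 1). CXCL16, a membrane-bound chemokine, read 97.4, 96.5 and 86.7 CPM against 19.02, 18.3 and 16.9 CPM (2.38), so the 2 chemokines differed in opposite directions. The inhibitor NFKBIA read 43.3, 43.1 and 43.2 CPM against 77.4, 78.8 and 80.7 CPM (-0.87) and the subunit RELA 91.02, 88.98 and 90.6 CPM against 77.4, 80.9 and 78.6 CPM (0.19, a call lost under scaling by library totals). ICAM1, an adhesion molecule and NF-kB target, read 91.8, 96.8 and 98.6 CPM against 51.04, 53.1 and 57.5 CPM (0.83).

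Basal keratinocyte genes were lower for 15 of 18 and higher for 2 (median -5.45, or -5.17 at the bounds). KRT17, a keratin of basal and activated epithelium, read 0.606, 1.07 and 1.13 CPM in shFTO and 1219.9, 1259 and 1312 CPM in shNC (log2 change -10.45, edgeR adjusted p = 1.06e-15). SFN, the epithelial 14-3-3 protein, read 2.27, 2.59 and 2.53 CPM against 216, 204 and 202 CPM (-6.404), and LAMB3, a chain of laminin-332, read 11.4, 11.04 and 11.2 CPM against 527, 553 and 561 CPM (-5.61). The 2 higher members were EGFR, at 185, 188 and 182 CPM against 90.3, 85.2 and 88.4 CPM (1.07), and ITGA6, at 116, 110.2 and 109 CPM against 58.5, 56.6 and 54.2 CPM (0.99). The partner of ITGA6 in hemidesmosomes, ITGB4, was lower, at 46.6, 44.3 and 45.1 CPM against 205, 203 and 218 CPM (-2.202).

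Urothelial and luminal genes divided, with 10 of 22 higher and 11 lower (median -0.21). KRT7, the simple keratin of urothelium, read 1.08, 0.915 and 0.973 CPM in shFTO and 1174, 1196 and 1255 CPM in shNC, while KRT19 read 164, 147 and 154 CPM against 4.44, 0 and 0.3 CPM. The general simple-epithelial pair KRT8 and KRT18 was lower but stayed abundant, with KRT8 at 1843, 1668 and 1708 CPM against 3669, 3850.0 and 3776 CPM and KRT18 at 1033, 989 and 1042 CPM against 1650.2, 1639.6 and 1676 CPM. Their log2 changes were -10.24, 6.702, -1.11 and -0.697 (edgeR adjusted p = 9.25e-21, 4.38e-06, 5.64e-14 and 3.68e-10), that of KRT19 being 9.78 without shNC replicate 1 and 6.11 without shNC replicate 3. Among the factors, GATA3 read 13.4, 12.4 and 12.1 CPM against 0.313, 0.149 and 0.0642 CPM, FOXA1 139, 146 and 138 CPM against 10.6, 8.54 and 9.76 CPM and PPARG 63.7, 64.3 and 64.7 CPM against 39.6, 37.1 and 37.3 CPM, all higher in each shFTO library. KLF5 (7.47, 7.47 and 8.295 against 134, 135 and 125 CPM, log2 change -4.08) and ELF3 (45.1, 47.6 and 48.1 against 118, 121 and 118 CPM, -1.34) were lower. The luminal surface genes PSCA and S100P read 0.0782, 0 and 0 and 1.7997, 1.71 and 1.25 CPM in shFTO and 52.9, 54.3 and 53.8 and 109, 93.1 and 111 CPM in shNC. Uroplakins stayed low, with UPK3B the highest at 7.12, 8.13 and 7.28 CPM in shNC against 0.137, 0.122 and 0 CPM in shFTO. FOXA1 also stands in the hepatic factor list, FGFR3 in the FGF19 list and ERBB2 and ERBB3 in the receptor list.

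Epithelial junction genes were higher for 21 of 26 and lower for 4 (median 2.10). CLDN1, a sealing claudin, read 649.9, 679 and 668 CPM in shFTO and 3.56, 3.75 and 3.38 CPM in shNC (log2 change 7.55, edgeR adjusted p = 1.8e-21). ESRP1, a splicing regulator of epithelial isoforms, read 152, 141 and 141 CPM against 0.313, 0 and 0.0428 CPM (10.296, or 12.37 without shNC replicate 1). The adhesion molecule F11R read 319, 305 and 319.6 CPM against 89.4, 86.3 and 88.2 CPM (1.84). The 4 lower members, named after their values were seen, were CLDN3, CLDN4, CLDN7 and PATJ.

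Mesenchymal and contractile genes did not differ in one direction, with 15 of 30 higher and 13 lower and a median of 0.12 that turned negative under scaling by library totals. VIM, the mesenchymal intermediate filament, read 515, 484 and 491 CPM in shFTO and 259, 259.8 and 260.1 CPM in shNC (0.93), and FN1, fibronectin, which hepatocytes also secrete, 2072, 2103 and 2182 CPM against 968, 1004 and 996 CPM (1.098). FLNA, an actin crosslinker, read 837, 811 and 796 CPM against 2269, 2363 and 2459 CPM (-1.54) and LMNA, the nuclear lamin that scales with tissue stiffness, 199, 189 and 188 CPM against 936, 939 and 994 CPM (-2.32). Filament and fibronectin genes were thus higher in each shFTO library, and the crosslinker and lamin were lower in each.

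Membrane and calcium-binding genes of caveolae, annexins and S100 proteins were lower for 17 of 20 and higher for 2 (median -3.09). AHNAK and AHNAK2, giant scaffold proteins under the membrane, read 101, 96.7 and 97.7 and 0.313, 0.397 and 0.23 CPM in shFTO. In shNC they read 1039, 1059 and 1024 and 721, 752 and 722 CPM. ANXA2, an annexin that works with S100A10, read 419, 385 and 409 CPM against 1449.7, 1428 and 1486 CPM, and S100A6, calcyclin, 26.5, 24.9 and 24.2 CPM against 726, 645 and 739 CPM. The coat protein CAV1 read 8.901, 9.82 and 8.68 CPM against 76.7, 74.8 and 74.2 CPM and CAV2 8.88, 8.69 and 9.73 CPM against 25.5, 27.1 and 24.8 CPM. No shFTO library reached any shNC library in these 6 genes, and their log2 changes were -3.401, -11.197, -1.85, -4.800, -3.05 and -1.503 (highest edgeR adjusted p = 7.55e-14, for CAV2).

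Matrix genes were lower for 27 of 42 and higher for 10 (median -2.64, or -2.47 at the bounds). COL7A1, the anchoring fibril collagen, read 8.16, 9.36 and 8.12 CPM in shFTO and 1351, 1359 and 1428 CPM in shNC, and COL5A1, which nucleates collagen fibrils, 0.0391, 0 and 0.102 CPM against 874, 864 and 900.1 CPM. Their log2 changes were -7.34 and -14.06 (edgeR adjusted p = 1.54e-21 and 5.01e-20), the second being -15.02 without shFTO replicate 3. THBS1, thrombospondin 1, was the named member that was higher, at 1211, 1229 and 1228 CPM against 8.68, 7.74 and 7.62 CPM (7.26). Laminin chains were lower by less, with LAMA5 at 316, 302 and 299 CPM against 1226, 1238 and 1318 CPM (-2.04) and LAMC1, the chain common to most laminins, at 489, 473 and 472 CPM against 536, 531 and 538 CPM (-0.16).

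Integrins and adhesion molecules were 13 higher and 12 lower of 28, with a median of 0.03 that turned negative under upper-quartile scaling and library totals. ITGB1, the beta chain of most matrix receptors, read 696, 634 and 667 CPM in shFTO and 381, 391 and 376 CPM in shNC (0.799), and ITGAV 299, 298 and 304 CPM against 50.7, 52.3 and 49.1 CPM (2.57). L1CAM, a neural adhesion molecule also found on carcinomas, read 25.3, 26.4 and 22.1 CPM against 1176, 1171 and 1209 CPM (-5.59, edgeR adjusted p = 3.56e-20). The tetraspanin CD151 was not called, at 177, 187 and 177 CPM and 176, 167 and 190.3 CPM, but was called higher without shNC replicate 3 (0.086, adjusted p = 0.048).

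Growth factor signalling genes differed by member and not by list. Of 18 ERBB receptors, ligands and related kinases, 8 were higher and 9 lower (median -0.01). ERBB3, a receptor that signals through its partners, read 270.4, 269 and 268 CPM in shFTO and 3.07, 2.65 and 2.18 CPM in shNC, while its partner ERBB2 read 70.6, 70.2 and 67.8 CPM and 77.9, 80.5 and 80.9 CPM. The ligand EREG read 161, 155 and 161 CPM against 0.996, 0.982 and 1.07 CPM and the feedback inhibitor ERRFI1 268, 273 and 266 CPM against 9.74, 7.798 and 8.16 CPM. The log2 changes were 6.69, -0.198, 7.28 and 4.98 (edgeR adjusted p = 7.47e-20, 0.000629, 8.88e-19 and 1.47e-19).

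AP-1 and immediate early genes were called in both directions, 11 of 24 higher and 13 lower (median -0.32). FOS, a subunit of the AP-1 dimer, read 16.5, 15.7 and 16.6 CPM in shFTO and 553, 564 and 568 CPM in shNC, and FOSL2 6.397, 7.63 and 6.81 CPM against 270.2, 269.7 and 274 CPM. The growth-induced factor EGR1 read 133, 136 and 132 CPM against 406, 426 and 420.0 CPM and the phosphatase DUSP1 39.4, 41.3 and 37.8 CPM against 256, 245 and 261 CPM. All 4 were lower in each shFTO library (-5.11, -5.298, -1.64 and -2.69). Of the members that restrain ERK signalling, named after their values were seen, SPRY2, SPRY4, SPRED1, DUSP5 and DUSP6 were called higher. DUSP4 was called lower, as was the phosphatase DUSP1 given above, so these members did not share one direction.

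Targets of YAP and TEAD, the transcription pair of the Hippo pathway, were 12 higher and 14 lower of 29 (median -0.15). ANKRD1 read 184, 181 and 169 CPM in shFTO and 0, 0 and 0.3 CPM in shNC, whereas MYOF, a membrane repair protein, read 32.2, 30.9 and 33.002 CPM against 464, 465 and 470.4 CPM. The coactivator YAP1 read 149, 143 and 147 CPM against 174, 166 and 155 CPM (-0.17) and TEAD1 96.4, 87.9 and 99.3 CPM against 643, 656 and 623 CPM (-2.76). The log2 changes of ANKRD1 and MYOF were 10.49 and -3.86. All 14 ANKRD1 counts in shNC came from replicate 3, and without it the fitted change was 16.11.

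The HOX clusters, whose genes mark position along the body axis, differed by cluster. All 9 tested genes of HOXB, all 8 of HOXC and all 7 of HOXD were lower in shFTO, while HOXA held genes called in each direction. Of the 10, 9 and 9 members of HOXB, HOXC and HOXD, 8, 3 and 7 had 0 counts in shFTO. Summed levels there were at most 0.154, 0.352 and 0.0512 CPM. Members at 0 counts in shFTO could pass the low-count filter only through other groups. They could not be called higher, so the single direction of these counts was partly set by the filter. In HOXB (chromosome 17), HOXB6 stood at 15.6, 16.7 and 16.9 CPM in shNC with 0 counts in shFTO, at least 673-fold lower, and HOXB3 at 16.4, 15.4 and 14.7 CPM with 0 counts (at least 636-fold lower). HOXB9 read 27.5, 25.3 and 26.3 CPM in shNC and 0, 0 and 0.0768 CPM in shFTO, a shNC to shFTO ratio of 1081 (95% counting interval 369 to 5244) on 3 counts. In HOXC (chromosome 12), HOXC10 was the highest, at 60.2, 62.5 and 64.4 CPM in shNC and 0.0391, 0 and 0 CPM in shFTO, a ratio of 3846 (95% counting interval 1064 to 31764) on 2 counts. In HOXD (chromosome 2), levels in shNC were lower throughout, with HOXD9 the highest at 6.15, 7.14 and 6.51 CPM against 0, 0 and 0.0512 CPM in shFTO. HOXC4, HOXC5 and HOXC6 overlap in the annotation, as do HOXB3 and HOXB4 and HOXD3 and HOXD4, so reads may be shared between them.

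HOXA (chromosome 7) is given in the order of the cluster. Towards the 3' end, HOXA2 read 2.97, 2.898 and 2.79 CPM in shFTO and 0.37, 0.179 and 0.236 CPM in shNC, and HOXA3 21.2, 21.3 and 21.4 CPM against 1.88, 1.696 and 2.42 CPM. Both were higher in each shFTO library, by log2 changes of 3.46 and 3.397. In the middle, HOXA4 and HOXA6 were not called (-0.04 and -0.29) and HOXA5 and HOXA7 were higher (0.53 and 1.89), the call of HOXA5 being lost under library totals (adjusted p = 0.0548). HOXA9 read 1.095, 1.28 and 1.08 CPM against 3.96, 4.197 and 4.004 CPM (-1.82) and HOXA10 15.3, 16.8 and 14.2 CPM against 20.98, 23.7 and 20.6 CPM (-0.496). At the 5' end, HOXA11 read 0.411, 0.519 and 0.64 CPM against 17.7, 18.7 and 17.7 CPM (-5.12, edgeR adjusted p = 6.21e-14) and HOXA13 had 0 counts in shFTO against 8.11, 8.33 and 7.901 CPM in shNC, at least 333-fold lower.

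**Figure D4:**
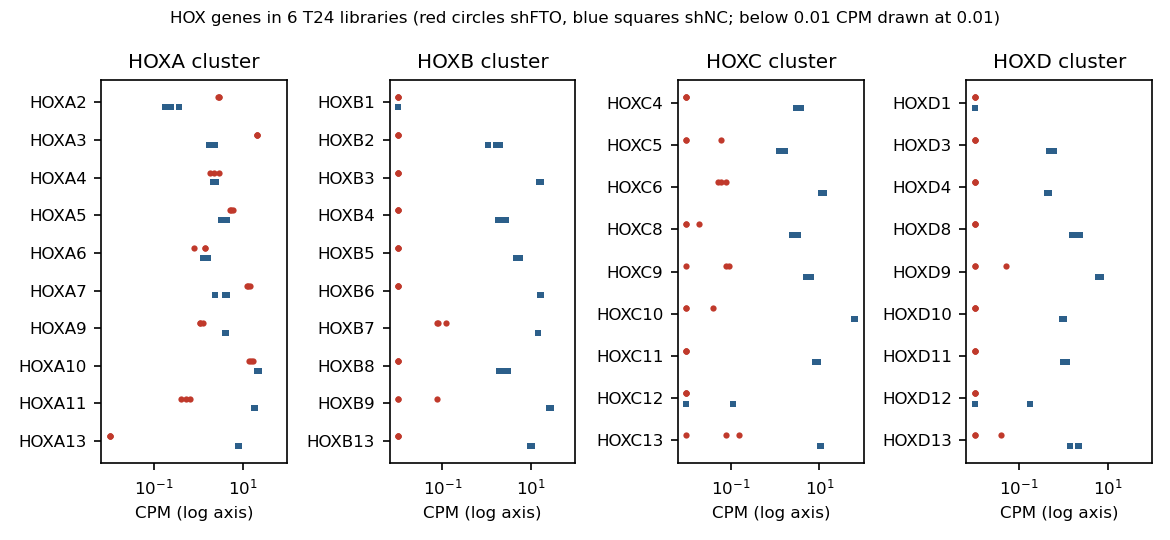
CPM on a log axis of HOX genes (rows, in cluster order) in the 3 T24 shFTO libraries (red circles) and the 3 T24 shNC libraries (blue squares), with values below 0.01 drawn at 0.01. In HOXA the red points move from right of the blue at HOXA2 to left of it at HOXA13, and in HOXB, HOXC and HOXD they lie at or near the left edge.

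Hexokinase was led by another gene of the family in each group. Levels here are CPM per kilobase of exon, so that genes can be compared. Hexokinase, which commits glucose to the cell, was HK1 at 74.8 in shNC and HK2 at 60.9 in shFTO, with HK1 at 0 counts in shFTO and HK2 at 6.999 in shNC. In CPM, HK1 read 339, 344 and 365 in shNC (at least 14309-fold lower in shFTO), and HK2 read 372, 358 and 356 in shFTO and 39.7, 42.9 and 42.1 in shNC (log2 change 3.12, edgeR adjusted p = 2.48e-19).

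Among glucose transporters SLC2A1 led in both groups. SLC2A1, the widespread transporter GLUT1, read 29.7, 31.97 and 30.9 CPM in shFTO and 313, 329.6 and 322 CPM in shNC (-3.38), and SLC2A3 2.27, 2.23 and 1.92 CPM against 28.4, 22.8 and 22.4 CPM (-3.51). SLC2A2, the transporter GLUT2 of liver and pancreatic beta cells, had 0 counts in shNC and 18.6, 18.5 and 18.05 CPM in shFTO. Per kilobase SLC2A1 stood at 7.74 and SLC2A2 at 5.73 in shFTO, and in shNC SLC2A1 stood at 80.7.

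Of the later glycolytic genes described here, all but PKLR were lower. Of the phosphofructokinases, PFKP read 0.743, 0.58 and 0.435 CPM in shFTO and 147, 144 and 149 CPM in shNC (-7.93), PFKM 19.2, 18.9 and 17.9 CPM against 163, 161 and 168 CPM (-3.13) and the liver form PFKL 85.9, 87.6 and 82.1 CPM against 143, 147 and 152 CPM (-0.79). PFKL was the highest of the 3 per kilobase in both groups, at 28.8 against 3.91 for PFKM and 0.155 for PFKP in shFTO and at 49.8 against 34.4 and 38.9 in shNC. PKM, the pyruvate kinase of most tissues, read 735, 680.5 and 687 CPM against 3035, 3037 and 3166 CPM (-2.14, edgeR adjusted p = 7.41e-18), and PKLR, the liver and red cell form, 12.7, 13.1 and 12.8 CPM against 0, 0.119 and 0.107 CPM (7.32). Of lactate dehydrogenase, the B chain LDHB stood at 0.548, 0.153 and 0.307 CPM against 858, 878 and 914 CPM (-11.23, or -11.85 without shFTO replicate 1), and the A chain LDHA read 556, 539.7 and 565 CPM against 1675, 1719 and 1768 CPM (-1.64). Per kilobase the chains stood near each other in shNC, at 579.5 for LDHA and 557 for LDHB, and far apart in shFTO, at 187 and 0.212.

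Aldolase and enolase differed less. ALDOA read 1174, 1214 and 1192 CPM in shFTO and 1666, 1661 and 1726 CPM in shNC (-0.498) and ENO1 1370.2, 1291 and 1299 CPM against 1993, 2025 and 2166 CPM (-0.64). Glycogen phosphorylase shifted from PYGL, at 61.6, 61.8 and 64.4 CPM against 202, 209 and 216 CPM (-1.74), towards PYGB, at 116, 112 and 106 CPM against 49.1, 50.5 and 54.9 CPM (1.11), although PYGL is the liver form. The muscle form PYGM was low and lost its call as lower with the batch as a replicate block (adjusted p = 0.0717, log2 change -0.73), with DESeq2 and no filter, and without shFTO replicate 1, shFTO replicate 3 or shNC replicate 3 (adjusted p up to 0.13).

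Families of amino acid and lipid handling were called in both directions. The liver glutaminase GLS2 read 0.782, 0.671 and 0.614 CPM in shFTO and 1.45, 1.49 and 1.61 CPM in shNC (-1.13). MAT1A, the liver methionine adenosyltransferase, read 11.5, 10.8 and 11.8 CPM against 0.142, 0 and 0.0856 CPM (7.14, or 7.77 without shNC replicate 1), yet MAT2A remained the higher of the pair per kilobase in shFTO, at 118 against 3.33. The alanine aminotransferase GPT2 read 103, 104 and 105 CPM against 21.3, 22.02 and 21.9 CPM (2.26). FABP1, the liver fatty acid binding protein, stood at 5.99, 5.46 and 5.402 CPM with 0 counts in shNC, and FABP3, the heart form, at 0.841, 1.01 and 0.563 CPM against 19.5, 17.4 and 17.6 CPM (-4.51). Of these genes the liver paralog was the higher of its 2 groups in shFTO for MAT1A and FABP1 and in shNC for GLS2.

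RAS genes and tropomyosins were read as families that no tissue programme names. NRAS read 146, 142 and 149.9 CPM in shFTO and 55.9, 58.1 and 56.4 CPM in shNC (1.36) and HRAS 12.6, 11.6 and 11.5 CPM against 18.5, 18.1 and 18.4 CPM (-0.62). NRAS was higher in each shFTO library and HRAS, the RAS gene for whose mutation the T24 line is known, was lower in each. No sequence variants were examined. Of the tropomyosins, TPM2 read 7.22, 5.86 and 7.45 CPM against 188, 179 and 179.6 CPM (-4.72), TPM1 was higher (0.65), and TPM3 was not called at 526, 517 and 556 CPM and 530.1, 529 and 516 CPM.

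**Figure D5:**
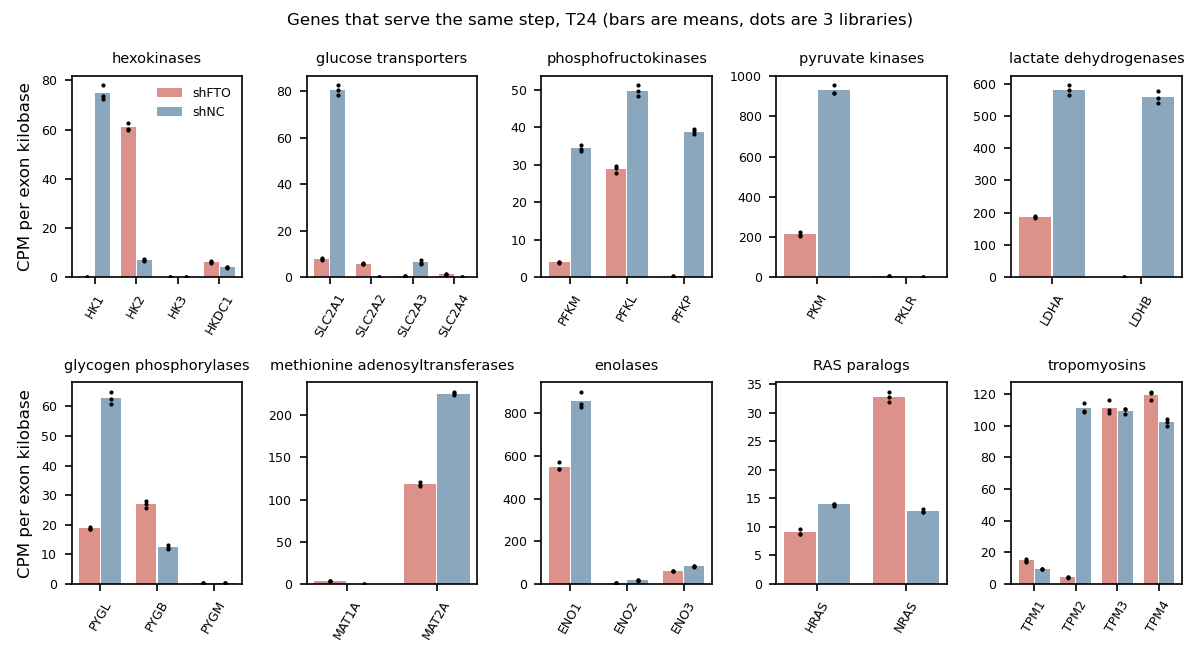
CPM per exon kilobase of genes in 10 families, with bars for the mean and dots for the 3 libraries of T24 shFTO (red) and T24 shNC (blue), each panel starting at 0. HK1 gives way to HK2, LDHB is seen in shNC and stands near 0 in shFTO, and TPM3 and TPM4 stand at similar heights in both groups.

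Proteasome and spliceosome genes, which every cell uses, were called in both directions, with list medians near 0 and larger changes in single members. Proteasome genes were 18 higher and 7 lower of 31 with a median log2 change of 0.18, but the balance turned under scaling by library totals, to 10 higher and 13 lower. PSMD2 read 451, 441 and 444 CPM in shFTO and 369, 373 and 388 CPM in shNC (0.24, not called under library totals) and PSMA1 175, 175 and 180.4 CPM against 240.4, 245 and 242 CPM (-0.46). Spliceosome genes were 18 higher and 12 lower of 32 (median 0.23), with SF3B2 at 722, 666 and 685 CPM against 279, 281 and 281 CPM (1.302) and PRPF8 at 631, 649 and 656 CPM against 1011, 1039 and 1061 CPM (-0.68).

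The 10 genes with the smallest change among those at 100 CPM or more were LRRC58, TUBA1C, HNRNPA1, PSMB3, ENOSF1, PRKCSH, RAB5C, MT-TY, CNOT1 and UBAP2L. PSMB3, a proteasome beta subunit, read 134, 159 and 147 CPM in shFTO and 144, 145 and 151 CPM in shNC. HNRNPA1, a splicing repressor, read 1051, 886 and 892 CPM and 957, 918 and 956 CPM. Their groups overlapped, and HNRNPA1 was called lower without shFTO replicate 1 (-0.084). They were selected for this, so the closeness is a description, and all 10 were called lower under scaling by library totals, which moved the median of all genes by -0.177.

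Cell cycle genes gave no single direction. Cyclins and kinases were 13 higher and 11 lower of 30 (median 0.03, negative under upper-quartile scaling and library totals), with MKI67, a marker of cycling cells, at 320.0, 299.6 and 323 CPM in shFTO and 144, 146 and 137 CPM in shNC (1.14) and PCNA not called at 197, 191 and 193 CPM and 182, 190.2 and 199.9 CPM. Inhibitors and p53 targets were 9 higher and 15 lower of 26 (median -0.36), with GDF15 at 251, 244 and 247 CPM against 18.05, 15.4 and 16.7 CPM (3.89) and XPC, a DNA damage sensor, at 56.5, 55.6 and 58.1 CPM against 111, 119.9 and 119 CPM (-1.04). In the RAS and PI3K pathway 13 of 25 were higher and 10 lower (median 0.24), with MAP2K2 at 299, 299.7 and 281 CPM against 101, 105 and 106 CPM (1.499) and AKT1 at 114, 106 and 109 CPM against 151, 160.5 and 162 CPM (-0.52).

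Mitochondrially encoded genes were higher for 11 of 13, with 2 not called (median 0.88), and all mitochondrial transcripts took 7.72% to 8.06% of counts in shFTO against 5.31% to 5.66% in shNC. MT-CO2, a cytochrome oxidase subunit, read 12246, 9543 and 11801 CPM in shFTO and 6227, 6098 and 5860.4 CPM in shNC (0.89). MT-CO1, from the same complex and strand, read 16299, 18073 and 18086 CPM against 15763, 16511 and 15430.0 CPM (0.14), a call that was lost under upper-quartile scaling and library totals. The nuclear genes of the same respiratory chain were 11 higher and 17 lower of 36 (median -0.10), with SDHA at 169, 152 and 162 CPM against 481, 487 and 503 CPM (-1.61) and ATP5F1B at 839, 841 and 829.5 CPM against 1241, 1278 and 1318 CPM (-0.61). Nuclear copies of mitochondrial sequence can take some of these reads.

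Genes that place, remove and read m6A are those of the labelled target's own pathway. Of 24 tested, 15 were higher and 5 lower with 4 not called (median 0.35), and under library totals the lower count rose to 8. Of the writers, METTL3, the catalytic subunit, was lower at 62.4, 67.3 and 62.98 CPM against 88.8, 87.4 and 91.9 CPM (-0.48, edgeR adjusted p = 2.71e-08), while its partner METTL14 was higher at 37.8, 36.7 and 37.99 CPM against 21.5, 19.6 and 19.98 CPM (0.88, adjusted p = 1.54e-09). The scaffold VIRMA read 102, 100.1 and 107 CPM against 50.1, 50.1 and 47.2 CPM (1.07), WTAP 81.6, 74.7 and 80.3 CPM against 64.4, 62.4 and 62.8 CPM (0.32) and ZC3H13 42.8, 40.1 and 39.1 CPM against 63.6, 59.3 and 60.6 CPM (-0.59). The ribosomal RNA methyltransferase ZCCHC4 read 30.7, 29.7 and 32.2 CPM against 8.97, 9.43 and 8.63 CPM (1.78).

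The second eraser, ALKBH5, read 104, 99.7 and 100.4 CPM in shFTO and 88.8, 88.2 and 85.4 CPM in shNC (0.22, edgeR adjusted p = 7.24e-05), a call lost under library totals. Per kilobase FTO stood at 1.75 in shFTO and 2.41 in shNC, and ALKBH5 at 34.6 and 29.8. The YTH readers split, with YTHDF3 at 93.4, 87.2 and 87.7 CPM against 53.999, 55.6 and 53.2 CPM (0.72) and YTHDC1 higher (0.71), YTHDF1 at 63.9, 64.1 and 57.5 CPM against 95.2, 93.5 and 98.9 CPM (-0.63) and YTHDC2 lower (-0.74), and YTHDF2 not called, although it was called higher without shFTO replicate 2 or shNC replicate 3. The widest gaps were in the fetal binding proteins IGF2BP2, at 163, 151 and 149 CPM against 7.83, 6.46 and 6.62 CPM (4.47), and IGF2BP1, at 455, 464 and 448 CPM against 65.3, 65.9 and 60.1 CPM (2.84). In these 2 and in METTL3 and METTL14 the groups did not overlap.

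Stemness factors and surface markers, which the study's title concerns, were 17 higher and 12 lower of 31 (median 0.24). ALDH1A1, a retinal dehydrogenase used to sort stem-like cells, read 977, 879.5 and 901 CPM in shFTO and 0, 0.0595 and 0.0428 CPM in shNC, and PROM1 (CD133) 388, 375 and 380.0 CPM against 0.285, 0.119 and 0.385 CPM. EPCAM, an epithelial surface marker, read 399, 371 and 362 CPM against 14.03, 14.5 and 14.03 CPM, and the factor SOX4 347, 337 and 338 CPM against 38.8, 38.8 and 34.9 CPM. The log2 changes of these 4 were 14.59, 10.41, 4.73 and 3.19 (highest edgeR adjusted p = 8.8e-16, for PROM1). MYC read 203, 205 and 213 CPM against 259, 263 and 265 CPM (-0.34), and CD24 705, 674 and 711 CPM against 653, 637 and 597 CPM (0.15), a call that was lost under upper-quartile scaling and library totals. Several of these genes, ALDH1A1, PROM1 and EPCAM among them, are also made by liver or other simple epithelia.

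Called genes were not spread evenly over the chromosomes. On chromosomes 4, 19 and 6 the shares called higher were 56.4%, 55.9% and 53.6% and the shares called lower 27.9%, 26.1% and 30.9%. On chromosomes 9, X and 5 the shares called higher were 25.5%, 25.8% and 27.6% and the shares called lower 56.8%, 55.8% and 57.3%. The median log2 change ran from -0.62 on X to 0.61 on chromosome 4, leaving out the mitochondrial genome. Neighbouring genes are not independent, no copy number was measured, and these shares were given no test.

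The T24 contrast was then set against the contrast of the same labels in RT4, which shares no library with it. The 2 contrasts differed for 17298 of 23070 genes (75%, edgeR adjusted p under 0.05). RT4 was itself split by markers of another cell type. Fibroblast markers summed to 7466 to 7802 CPM in RT4 shFTO and 1.35 to 1.68 CPM in RT4 shNC. Of these 9 markers, 8 were called higher and 1 lower, beside 78.6% of all tested genes called in either direction in RT4. Matrix genes summed to 25664 to 26316 CPM in RT4 shFTO and 3263 to 3433 CPM in RT4 shNC. The part of these markers in the difference was not tested. Of the 24 genes with the largest gains or losses, chosen by their T24 change, 19 had a called difference. Opposite calls in the 2 lines were made for 13 of the 24 (54.2%) and for 33.9% of all tested genes, and nothing particular to the 24 is read from this. CPS1, for example, changed by -8.54 in T24 and by 2.15 in RT4, where it ranged from 2.83 to 3.67 CPM in shFTO and from 0.64 to 0.872 CPM in shNC. FTO, lower in T24, read 65.2 to 71.3 CPM in the RT4 libraries labelled shFTO and 45.03 to 46.9 CPM in those labelled shNC (0.58), so it went against the label there, and the T24 minus RT4 difference was -1.04. ALB stood at 0.594 to 1.04 CPM in RT4 shFTO and 0.155 to 0.321 CPM in RT4 shNC, so its level in T24 shFTO was not seen in either RT4 group.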

How the data were processed

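Poly(A) RNA was sequenced as 150 base pairs paired end, per the labels' protocols. Reads were handled with fastp 0.20.0, STAR 2.7.9a and featureCounts 2.0, per the submitters' processing notes, which name the builds GRCh38, hg38 and mm39 with no role. For strand, annotation release and multi-mapping reads no setting is given in the sources used, so near copies (HLA, IFITM, UGT2B, AKR1C and mitochondrial genes) and overlapping or antisense genes are uncertain. The authors deposited whole-number counts of 43557 genes.

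From those counts, edgeR 4.0.16 (R 4.3.3) fitted all 12 libraries in 4 groups with TMM scaling, filterByExpr and robust quasi-likelihood (8 residual degrees of freedom), with Benjamini-Hochberg adjustment over 23070 genes and a threshold of 0.05. The code was tested on simulated data in which few genes changed. That simulation checks the code and does not bear on a contrast where most genes were called. Fitted log2 changes use a prior count of 0.125. A group at 0 counts was bounded at 3 counts over the group, and with 1 to 3 counts the ratio has a 95% counting interval, both covering counting error only. Promoters come from RefSeq GRCh38.p14 (13980 tested genes matched by symbol) and exon lengths from GENCODE v29. Of 993 list, family and marker symbols, 11 were not analysed here.

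The members, 36 lists and 18 families were chosen with earlier results of these data known. Named genes were FTO, the 12 largest gains and 12 largest losses of mean CPM among called genes with a symbol, the 10 smallest changes at 100 CPM or more, the 6 highest members of each list, every member of the HOX, m6A, FGF19, urothelial and hepatic factor lists and of the families, and genes with a printed promoter. Some genes these rules name are not reported here.

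Replicates differed by more than sampling noise (chi-squared per degree of freedom 5.47 to 8.42) and were kept as separate libraries. The labels give each replicate number as a batch number that holds 1 library per group, which is where the pairing comes from. Residuals of same-numbered shFTO and shNC libraries correlated at r = 0.101, -0.036 and 0.019 over 10876 genes. Those of differently numbered libraries ran from -0.096 to 0.100, so the same numbers did not stand apart. Alternatives were RLE and upper-quartile scaling, no filter, 1 CPM in 3 libraries, DESeq2 1.42.0, limma-voom (limma 3.58.1), T24 alone, the batch as a replicate block, each library left out and a 2-fold threshold. Library totals as scaling and leaving out mitochondrially encoded genes were chosen after seeing the data.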

Additional observations from a re-analysis of the deposited data

Results flagged for a closer look

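The T24 contrast differed from the same contrast in RT4 (edgeR interaction term, adjusted p under 0.05) for 17298 of 23070 genes. For FTO the difference of log2 changes, T24 minus RT4, was -1.04, with FTO lower under the shFTO label in T24 (3 of 3 libraries) and higher in RT4 (3 of 3).

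Of the 24 genes with the largest gain or loss in T24, which were chosen by their T24 change, 13 (54.2%) were called in opposite directions in the 2 lines, beside 33.9% of all tested genes. EEF1A1 and EEF2 were higher under shFTO in T24 and lower in RT4, with differences of 2.71 and 2.97. The other 11 were lower in T24 and higher in RT4. Among structural genes the differences were -16.79 for KRT17, -14.47 for KRT7, -3.66 for KRT8, -9.69 for COL7A1 and -3.37 for FLNA. They were -10.69 for CPS1, -4.36 for PKM, -4.55 for FTH1, -2.59 for PSAP, -5.76 for B2M and -3.81 for CLU. Both lines contribute 3 libraries per group, and what sets the lines apart was not tested.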

How the results depend on the processing

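The counts of genes called higher and lower, the FTO change and the count of genes that differ from RT4 kept their direction and stayed within 1.5 times under RLE and upper-quartile scaling, both other filters, DESeq2, limma-voom, T24 fitted alone, library totals and the fit without mitochondrially encoded genes. The exception was the count called higher under a 2-fold threshold, 4904 against 8584, where the threshold itself removes genes. Leaving out each library in turn gave 8394 to 8747 genes higher, 9213 to 9723 lower, 17114 to 17473 different from RT4, and an FTO change of -0.48 to -0.42. With the batch number as a replicate block 8357 genes were higher, and among 337 named genes the block ended 2 calls, of which the reported one was PYGM (adjusted p 0.0717).

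Scaling moved genes near 0. Against TMM the median of all genes shifted by -0.105 with upper-quartile scaling and by -0.177 with library totals, and the share of calls that were higher went from 47.7% to 44.2% and 41.7%. Of the named genes, 39 changed their call under at least 1 alternative. A gene called in neither fit was given no direction. With library totals genes that TMM did not call became called lower, CD151 at -0.16, CNOT1 -0.17, HNRNPC -0.13, PCNA -0.16, PRKCSH -0.18, PSMB3 -0.18, TPM3 -0.16 and YTHDF2 -0.11, and genes called higher changed sign and lost their call, CD24 at -0.0317, MT-CO1 -0.0421 and PSMB4 -0.0292. With upper-quartile scaling CNOT1 was called lower at -0.10, PCNA at -0.0858 and PRKCSH at -0.10. Library totals also ended the higher calls of ALKBH5, METTL16, HOXA5, MET, RELA, TPM4, PSMD2, PSMD3 and PSMD4. Leaving out 1 T24 library ended the calls of CD63, JAK1, PYGM or SNRNP200 and gave calls to HNRNPA1, NDUFV1, YTHDF2 or CD151; the cause was not tested. Leaving out 1 T24 library also moved the fitted fold of 38 called genes by over 1.5 times, 37 of them with a group mean under 1 CPM.

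Of the counts of list members, 5 of 72 moved by over 1.5 times, the m6A and proteasome counts under library totals given in the report, the plasma carriers (1 lower in place of 0 with no filter and in 10 of the 12 fits with 1 library left out) and the mitochondrial list where its genes were left out. Depth limits the genes near 0 counts, where only bounds can be given.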

Other observations

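Gene classes differed in balance. Of 15361 tested protein-coding genes 44.4% were higher in T24 shFTO and 41.5% lower, whereas of 2152 long noncoding RNAs 21.4% were higher and 48.6% lower, with a median log2 change of -0.73. Of 852 pseudogenes 26.8% were higher and 31.2% lower. The levels of these classes were not compared, and the cause of the differences was not tested.

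Among genes at 10 CPM or more in one group with 0 counts in the other, 23 of the 109 found in shFTO and 16 of the 122 found in shNC stand in one of the 36 lists. The lists were chosen with earlier results of these data known. No share over all tested genes was set beside these counts, and nothing particular to the genes is read from them.

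Single libraries stood apart for few genes. A level of at least 1 CPM that was at least 4-fold above both other libraries of the group was seen for 20, 5 and 12 genes in shFTO replicates 1, 2 and 3 and for 11, 12 and 16 genes in shNC replicates 1, 2 and 3. KRT19, which meets this rule, read 4.44, 0 and 0.3 CPM in the shNC libraries. HNF4G, which does not meet it, read 7.04, 19.6 and 20.5 CPM in the shFTO libraries, lowest in replicate 1. Both were chosen here after their values were seen, and the cause was not tested.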
